A study of Mus musculus with 2 samples.

Results

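The 10 genes described here encode the contractile machinery of smooth muscle and its switch factor: Acta2, Tagln, Myh11, Cnn1, Actg2, Myocd, Lmod1, Des, Smtn and Mylk. They were chosen as a list of symbols by function, with no threshold on their values, and all 10 were matched to NCBI gene numbers among the 41709 entries of the deposited tables. RNA with a poly(A) tail was sequenced from whole lungs of C57BL/6 mouse embryos at E14.5, a stage at which the airways branch. One library came from lungs whose genotype is given as control and the other from lungs whose genotype is given as Prmt5 knockdown, and 7 lungs were pooled for each. The second sample is titled Shh;Prmt5, and neither the manner in which the genes were altered nor the cells concerned is given in the labels. Shh-Cre, a recombinase placed under the Shh gene, is a common tool for deleting genes in lung epithelium, but the labels do not name it.

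Smooth muscle cells contract when calcium activates myosin light chain kinase, which lets myosin pull on smooth muscle actin. In the embryonic lung, smooth muscle wraps the proximal airways, where sonic hedgehog from the epithelium acts on the mesenchyme beneath it, and it also forms the wall of the arteries. Myocardin, the product of Myocd, joins serum response factor at short A/T-rich elements called CArG boxes and switches on the contractile genes. Several of these genes are also active for a time in the embryonic heart and in skeletal muscle, and desmin stays abundant there. In whole-lung RNA, fewer smooth muscle cells and less RNA per cell cannot be told apart.

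Reads assigned to genes numbered 22581490 in the control library and 25829281 in the knockdown library. With 1 library per genotype there is no replicate, so no p-value is given and each interval below covers counting error only. Ratios are knockdown over control after scaling by the trimmed mean of M values, as log2 with a 95% exact interval. Genes with 50 or more reads in either library are called measured. The rule of size asks for a difference of 1.5-fold or more, up or down, with an interval that excludes 1. Liver, heart and skeletal muscle markers were all higher in the knockdown library (9 of 9, 14 of 14 and 12 of 12), although the tissue is labelled as lung, and 10 of 12 lung epithelium markers were lower (median log2 ratio -2.01). Genes of red blood cells took 1.20% of control and 3.84% of knockdown reads, and 13 of the 15 listed passed the rule upward (median 2.24). Of the 2 genes in the sample title, Prmt5 had 2704 and 2127 reads (log2 -0.43), short of the rule, and Shh 1124 and 109 (log2 -3.44).

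Of the 10 genes 9 were measured. Of these, Des and Cnn1 were higher, Myh11, Mylk and Actg2 were lower, and 4 genes (Acta2, Smtn, Lmod1 and Myocd) did not pass the rule. Of all 14569 measured genes 20.7% were higher and 12.3% lower, together 33.0%. With total counts in place of the main scaling the share of higher genes among those past the rule was 52.3% in place of 62.7%, and the median of all measured genes shifted by -0.11. The median log2 ratio of the 9 genes was -0.27, beside -0.01 for all measured genes. Read together, the 10 genes held 0.178% of control reads (0.177% to 0.180%) and 0.135% of knockdown reads (0.134% to 0.137%). Tagln, with a doubtful count of 0 and 4 reads, enters these shares and the ranks and summed FPKM below as counted. The contractile genes did not move together: the actin Acta2 was nearly level while myosin, its kinase and the second smooth muscle actin were lower and desmin was higher.

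**Figure D1:**
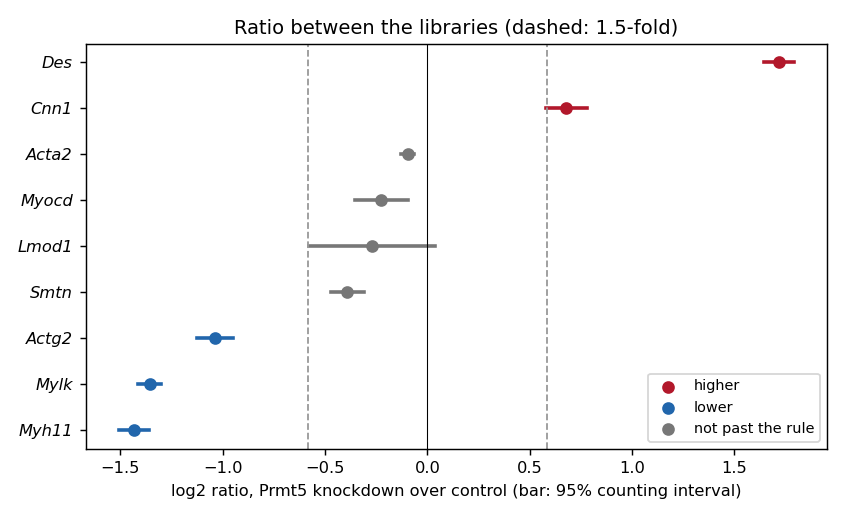
Log2 ratio of knockdown over control for the 9 measured genes, 1 library each; points are ratios, bars are 95% counting intervals and dashed lines mark 1.5-fold. Des (1.72) and Cnn1 (0.68) lie to the right, and Actg2 (-1.04), Mylk (-1.36) and Myh11 (-1.43) to the left.

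The sequences upstream of the members were compared for short elements bound by muscle regulators. RefSeq promoters on GRCm38.p6 were at hand for 6 of the 10 genes (Acta2, Cnn1, Lmod1, Des, Smtn and Mylk), and the 250 bases before the listed start site were searched. For Acta2, Mylk and Cnn1 the listed start lies inside the RefSeq span of the gene, which also holds transcripts that begin further upstream. For Des the bases after the listed start were not found near the start of a GENCODE transcript of the gene, so its window may not match the start used in these libraries. The CArG box was searched with all 6 inner bases A or T, and again with 1 of them allowed to be another base; the element reads alike on both strands. CATTCC, the core of the MCAT element bound by TEAD factors, was searched on both strands. Promoters of 3 genes are printed because their genes behaved differently: Acta2 stayed nearly level, Mylk fell and Des rose. Capitals mark CArG boxes with at most 1 inner mismatch and CATTCC or its reverse complement GGAATG, and sequences run 5′ to 3′ on the gene's strand.
Acta2 (chr19:34255374-34255623, minus strand): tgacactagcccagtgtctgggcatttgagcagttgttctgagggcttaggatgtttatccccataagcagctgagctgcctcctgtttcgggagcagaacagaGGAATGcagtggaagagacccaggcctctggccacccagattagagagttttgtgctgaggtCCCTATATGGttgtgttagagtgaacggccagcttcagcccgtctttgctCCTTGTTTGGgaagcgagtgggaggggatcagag
Mylk (chr16:34784700-34784949, plus strand): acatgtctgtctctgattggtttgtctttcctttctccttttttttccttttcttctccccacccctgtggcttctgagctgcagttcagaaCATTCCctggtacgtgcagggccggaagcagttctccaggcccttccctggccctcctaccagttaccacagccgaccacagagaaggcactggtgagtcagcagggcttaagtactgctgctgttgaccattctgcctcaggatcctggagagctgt
Des (chr1:75360042-75360291, plus strand): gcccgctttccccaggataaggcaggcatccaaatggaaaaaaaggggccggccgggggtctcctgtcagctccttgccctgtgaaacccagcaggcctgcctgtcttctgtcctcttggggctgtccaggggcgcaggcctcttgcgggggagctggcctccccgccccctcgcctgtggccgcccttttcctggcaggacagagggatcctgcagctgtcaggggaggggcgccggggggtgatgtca

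The Acta2 window held 2 CArG boxes, CCCTATATGG at -84 to -75 and CCTTGTTTGG at -34 to -25 from the listed start, each with 1 inner base that is not A or T. None of the other 5 windows held one, and none of the 6 held a box with all inner bases A or T. Among all 32851 promoter windows of this length in the table, 8.59% held a box with at most 1 inner mismatch and 1.47% one without a mismatch. CATTCC stood in 4 of the 6 windows (Acta2, Lmod1, Smtn and Mylk), beside 12.6% of all windows. Of those 4 genes Mylk was lower and the other 3 did not pass the rule, and Cnn1 and Des, without it, were higher, Cnn1 not under every scaling. No sequence was searched for Myh11 and Actg2. The GLI motif GACCACCCA stood in none of the 6 and in 0.225% of all windows. These are matches of letters in a short window and say nothing of the factors' binding.

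Myocd (NCBI gene 214384, chromosome 11, 65173608 to 65269989), the factor that drives the contractile program, had 1010 control and 916 knockdown reads, or 6.65 and 5.27 FPKM (reads scaled to gene length and library total). Its log2 ratio was -0.23 (-0.36 to -0.09), 1.17-fold lower and short of the rule. In both libraries it had rank 8 of the 10 genes by FPKM. Myocd lay 0.13 below Acta2 on the log2 scale (difference -0.13, -0.26 to 0.01), a difference within counting error. Its ratio lay closer to 1 than those of Myh11, Mylk and Actg2. Summed heart markers went from 208 to 5814 FPKM, and the part of heart RNA in the Myocd value was not tested.

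Acta2 (NCBI gene 11475, chromosome 19, 34240336 to 34255585) encodes smooth muscle alpha-actin, the filament on which myosin pulls. It had 15037 control and 14908 knockdown reads, or 355 and 308 FPKM, and stood first of the 10 genes in both libraries. Its share of the summed FPKM of the 10 genes was 52.9% for control and 54.6% for knockdown lungs. Tagln, whose count is in doubt, enters this sum and the ranks as counted. Its log2 ratio was -0.10 (-0.13 to -0.06), a 1.07-fold difference. Actg2 (NCBI gene 11468, chromosome 6, 83512909 to 83536251), the gamma-actin typical of visceral smooth muscle, had 3036 and 1569 reads, or 102 and 46.2 FPKM. It was 2.05-fold lower (log2 -1.04, -1.13 to -0.95). The 2 smooth muscle actins therefore parted. Per length, Actg2 ran at 0.288 of the Acta2 level among control reads but at 0.150 among knockdown reads. The log2 difference was -0.94 (-1.03 to -0.85), in which library size cancels. The part of heart and skeletal muscle RNA in the Acta2 value, and so in each difference from Acta2, was not tested. Transcript windows of 50 bases that also occur in another gene made up 0.326% of the Acta2 windows and 0% of the Actg2 windows, and none was shared between them.

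**Figure D2:**
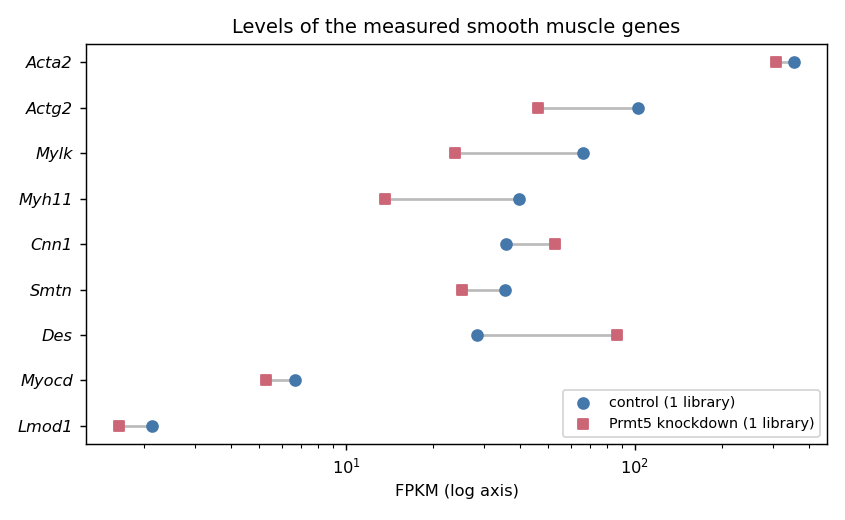
FPKM of the 9 measured genes on a log axis, control as circles and knockdown as squares, 1 library each. Acta2 stands first in both libraries, at 355 and 308, and Des moves from rank 7 of 10 at 28.5 to rank 2 at 86.8.

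Cnn1 (NCBI gene 12797, chromosome 9, 22099221 to 22109221) encodes calponin, an actin-binding protein that dampens the myosin motor. It had 1294 and 2196 reads, or 35.8 and 53.1 FPKM, and was 1.60-fold higher (log2 0.68, 0.58 to 0.78). With total counts the log2 ratio was 0.57, and with FPKM at pseudocounts of 0.1 and 1 it was 0.57 and 0.56, each just short of the rule. The direction held under these settings. The difference from Acta2 (0.78, 0.67 to 0.88) needs no scaling. The 2 non-muscle calponins did not pass the rule: Cnn2 had a log2 ratio of -0.49 and Cnn3 of -0.11.

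Lmod1 (NCBI gene 93689, chromosome 1, 135324813 to 135368065), a leiomodin that starts actin filaments in smooth muscle, had 190 and 167 reads, or 2.13 and 1.64 FPKM. It is the least abundant measured member, and its log2 ratio of -0.27 (-0.58 to 0.04) has an interval that includes 0. Its striated muscle relatives were far higher in the knockdown library: Lmod2, of heart, had 6 and 554 reads (log2 6.33, 5.31 to 7.90) and Lmod3, of skeletal muscle, 4 and 367 (6.27, 5.07 to 8.32).

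Tagln (NCBI gene 21345, chromosome 9, 45929628 to 45936058), which encodes the actin-associated protein SM22 and is ordinarily among the abundant smooth muscle transcripts, was counted at 0 control and 4 knockdown reads. A count of 0 allows up to 3 reads in the control. Of the 1988 exon bases of Tagln in GENCODE, 67.9% also lie in exons of genes on the opposite strand, 1241 of them in Gm48529 and 108 in Pcsk7. Gm48529 had no overlapping span in RefSeq and no matched entry in the deposited counts, and Pcsk7 shares 5.43% of the exon bases. In RefSeq the spans of Tagln and Pcsk7 overlap by 2480 bp. Pcsk7 had 882 and 803 reads. Neither the strand setting nor the treatment of overlapping genes is known from the labels, and the part of the overlap in this count was not tested. No level or ratio is read from Tagln. Among the other members the shared exon share was at most 16.3%, in Smtn, whose antisense partner Gm11946 had 19 and 4 reads. The relative Tagln2, of non-muscle cells, had 7374 and 5470 reads (log2 -0.52) and did not pass the rule.

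Myh11 and Mylk, the myosin heavy chain and the kinase, were both lower, whereas Myl9, the regulatory light chain that the kinase acts on, was higher (5249 and 10493 reads, log2 0.92, 0.87 to 0.96; named after its value was seen). Myh11 (NCBI gene 17880, chromosome 16, 14194527 to 14292188), the smooth muscle myosin heavy chain and the member most restricted to mature smooth muscle, had 5545 and 2177 reads, or 39.7 and 13.6 FPKM. It was 2.70-fold lower (log2 -1.43, -1.51 to -1.36) and went from rank 4 to rank 7 of the 10 genes by FPKM. Mylk (NCBI gene 107589, chromosome 16, 34745199 to 35002436), the light chain kinase that starts contraction, had 9486 and 3924 reads, or 66.0 and 23.9 FPKM, and was 2.56-fold lower (log2 -1.36, -1.41 to -1.30). The gene also makes a longer form outside muscle, which gene counts do not separate. The ratio of Mylk to Myh11 FPKM was 1.66 for control and 1.75 for knockdown lungs, a log2 difference of 0.08 (-0.01 to 0.17) that is within counting error. Against Acta2, Myh11 was lower by a log2 difference of -1.34 (-1.42 to -1.26) and Mylk by -1.26 (-1.32 to -1.20).

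Des (NCBI gene 13346, chromosome 1, 75360292 to 75368579) encodes desmin, the intermediate filament that ties contractile units together in all muscle. It had 1972 and 6872 reads, or 28.5 and 86.8 FPKM, and was 3.29-fold higher (log2 1.72, 1.64 to 1.79). It rose from 4.24% to 15.4% of the summed FPKM of the 10 genes. Des FPKM was 0.718 of that of Myh11 in the control and 6.37 times it in the knockdown library. Vim, the intermediate filament gene of mesenchyme, had 21274 and 26463 reads (log2 0.23), short of the rule.

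Heart and skeletal muscle markers moved in the same direction as Des. All 14 heart markers were higher, with log2 ratios of 2.93 to 8.47, and their summed level went from 208 to 5814 FPKM. All 12 skeletal markers were higher, by log2 ratios of up to 5.96, and their sum went from 23.8 to 828 FPKM. None of these markers was at 0 in either library. Their part in the values of Des, Cnn1 and the other members was not tested. Without Des, 1 of the 8 remaining measured genes was higher, namely Cnn1, and Myh11, Mylk and Actg2 were lower.

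Smtn (NCBI gene 29856, chromosome 11, 3517522 to 3539292) encodes smoothelin, a cytoskeletal protein of contractile smooth muscle. It had 2687 and 2173 reads, or 35.6 and 25.2 FPKM, a log2 ratio of -0.39 (-0.47 to -0.31) that did not pass the rule. Smtnl2 had 2816 and 2316 reads and a log2 ratio of -0.37.

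Paralogs of the members set the smooth muscle forms against those of striated muscle and of other cells. Among 21 listed paralogs 19 were measured, and under the main scaling 9 were higher and none was lower. The 9 are all striated muscle forms: the actins Acta1 (log2 5.37) and Actc1 (4.35), the myosins Myh6 (4.38), Myh7 (8.47) and Myh3 (5.27), the kinases Mylk3 (4.56) and Mylk4 (4.84), and both leiomodins. Acta1, Actc1, Myh6, Myh7 and Myh3 also stand on the heart or skeletal muscle marker lists. Actc1, the cardiac actin, rose from 83.7 to 1578 FPKM. It was thus below Acta2 in the control (355 FPKM) and above it in the knockdown library (308). Under the main scaling the non-muscle forms did not pass the rule: Actb had a log2 ratio of -0.31, Actg1 of -0.11, Myh9 of -0.53 and Myh10 of -0.55. Total counts shift log2 ratios by -0.11, which would take Myh9 and Myh10 past the rule as lower. The ratios of Myh11 and Actg2 lay below those of the non-muscle forms of their families. Acta2 (-0.10) lay above Actb but close to Actg1 (-0.11), and Cnn1 (0.68) lay above Cnn2 and Cnn3.

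**Figure D3:**
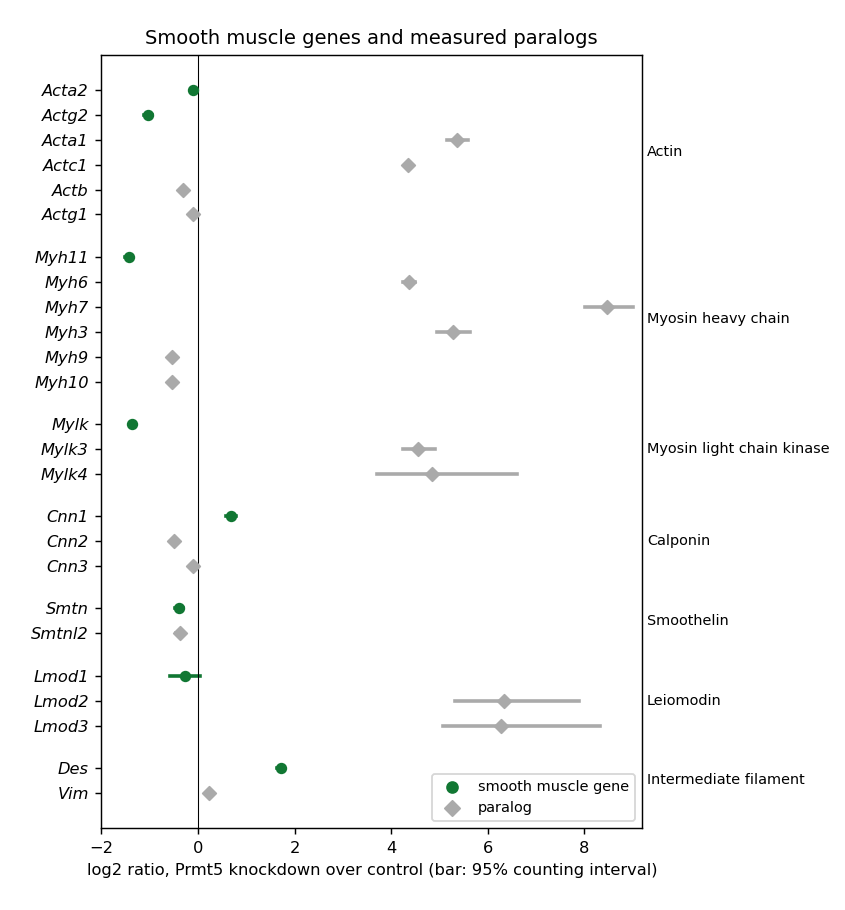
Log2 ratio of knockdown over control for measured smooth muscle genes (circles) and measured paralogs (diamonds) by family, bars being 95% counting intervals. Myocd and the measured paralogs Tagln2 (-0.52) and Tagln3 (0.27) are not shown. Striated muscle forms such as Myh7 (8.47) and Acta1 (5.37) lie far to the right. The non-muscle forms shown lie between -0.55 (Myh10) and 0.23 (Vim), and Myh11 (-1.43) lies to the left.

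Other genes of the smooth muscle cell were split as well. Of 22 listed genes 21 were measured, 8 higher, 4 lower and 9 short of the rule, with a median log2 ratio of 0.10. The highest were Ldb3 (4.94), a Z-disc gene of striated muscle, the chaperone gene Hspb1 (1.96), Pdlim3 (1.81) and the tropomyosin gene Tpm1 (1.27), and several of these are active in striated muscle too. The 4 lower genes were Ppp1r14a (-1.20), an inhibitor of myosin phosphatase, the actin crosslinker Flna (-0.79), the intermediate filament gene Synm (-0.70) and the integrin gene Itga1 (-0.65). The other 3 are also active outside smooth muscle. All 4 were named after their values were seen. Ppp1r14a had 2506 and 1153 reads, or 209 and 84.1 FPKM.

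Of 15 genes of serum response factor and its partners and opponents, 3 were higher and none lower, with a median of -0.03. The 3 were Hey2 (2.45), a NOTCH-induced repressor, Fhl2 (2.08), a LIM protein abundant in heart, and Csrp2 (0.73), a LIM protein of smooth muscle. The part of heart RNA in the values of Hey2, Fhl2 and Csrp2 was not tested. Srf itself had 5816 and 4221 reads (log2 -0.55, -0.60 to -0.49), 1.46-fold lower and just short of the rule. The other myocardin-family coactivators stood at -0.36 (Mrtfa) and -0.39 (Mrtfb), also short of it. These 3 were named after their values were seen.

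Signals that induce lung smooth muscle were mostly lower. Of 20 genes 12 were lower and none higher, with a median of -0.88. Among the lower genes were Shh (-3.44), its feedback inhibitor Hhip (-2.45) and the epithelial ligand Wnt7b (-2.38), which acts on smooth muscle precursors. The share of lung epithelium markers that were lower, 10 of 12, stands beside the epithelial ligands among them, and its part in their values was not tested.

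Markers of the smooth muscle compartments differed among themselves. Of 5 airway smooth muscle markers Hhip, Lgr6 (-2.40) and Foxf1 (-1.87) were lower and the muscarinic receptor genes Chrm2 (1.01) and Chrm3 (0.70) higher. Chrm3 had only 40 and 69 reads, with an interval of 0.12 to 1.30. Of 9 vascular smooth muscle and pericyte markers 4 were lower, Notch3 (-1.25) and Pdgfrb (-0.80) among them, and 2 were higher, Abcc9 (1.23) and Rgs5 (0.70), with a median of -0.03. Hhip, Foxf1 and Pdgfrb were already counted among the inducing signals, so they are not separate results here. Of 6 gut wall markers 4 were higher: Hand1 had 1 and 138 reads, Nkx3-2 had 1 and 91, Hand2 had 117 and 1771 and Barx1 had 56 and 673. Ano1 was lower (-1.13) and Kit did not pass the rule. All 14 heart markers were higher as well, and the part of heart RNA in the Hand1 and Hand2 values was not tested. Of 10 fibroblast matrix markers 5 were higher, led by Twist1 (2.86) and Postn (2.31), and 1 was lower. Which compartment or organ the reads of these markers, or of Acta2, Cnn1 or Actg2, came from was not tested.

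**Figure D4:**
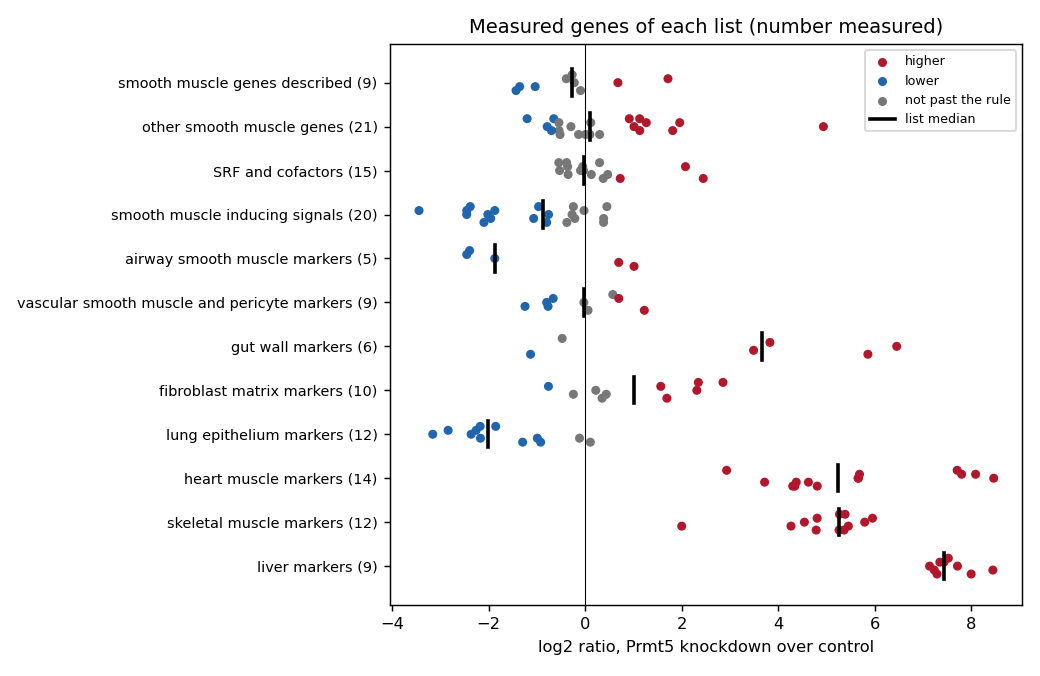
Log2 ratio of knockdown over control for every measured gene of each list, the number measured in brackets, coloured by whether it passed the rule, with black bars as list medians. The smooth muscle genes (median -0.27) spread to both sides of 0, while heart (5.24), skeletal muscle (5.27) and liver markers (7.44) lie to the right and lung epithelium markers (-2.01) to the left.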

How the data were processed

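Per the submitters' processing notes, reads were processed with Bowtie2 2.2.3, TopHat2 2.0.12 and HTSeq 0.6.1 on mouse build mm10. Annotation, strandedness and the handling of multi-mapped reads were not given in the sources used here. The authors deposited raw read counts per gene and matching FPKM values. Each deposited FPKM was the count over a whole-number gene length (within 0.001 bp in 100% of 22831 genes with reads in both libraries) and the total count, so FPKM adds lengths only. Symbols and coordinates came from RefSeq on GRCm38.p6 (40269 entries matched).

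Effective library sizes came from edgeR 4.0.16 in R 4.3.3 (normalization factors 1.04 and 0.963, control first). Ratios used a prior count of 0.5, in proportion to library size, and intervals were exact Clopper-Pearson intervals of the 2 counts given their sum. Differences between genes used the exact conditional interval of the odds ratio (scipy 1.17.1). PCR copies are not independent molecules, so intervals can be too narrow. The scripts were tested on simulated data. The 10 genes, the 12 other lists and the rules were chosen with earlier results of these data known. The text names all 10 members, their paralogs beside them, and from most other lists up to 4 genes past the rule of size, ranked by the interval bound nearest to 1. Genes behind a count of 5 or fewer, and single genes of interest, were added after their values were seen; for some lists fewer genes are named. One gene that this rule takes is not reported here; it remains in the list totals. Alternatives covered scaling (among them DESeq2 1.42.0 size factors), prior count, FPKM, read minimum, ratio and interval.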

Additional observations from a re-analysis of the deposited data

How the results depend on the processing

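Under 13 alternative settings the number of lower smooth muscle genes was 3 each time. The number of higher genes was 2, and it was 1 with total counts, 1 with deposited FPKM at a pseudocount of 0.1, 1 at a pseudocount of 1, 1 at a ratio of 2 and 1 without Des. In the first 4 of these, Cnn1 was the gene that no longer passed, at 0.57, 0.57, 0.56 and 0.68. The other 103 values of single genes kept their direction and their side of the rule, and the median log2 ratio lay between -0.38 and -0.22. The alternatives of read minimum, ratio and interval do not alter a gene's log2 ratio, so its direction could not change under them. Lmod1, with under 200 reads, is not measured at a minimum of 200. Over all measured genes, a ratio of 2 left 703 lower in place of 1795. Counts for the other lists were taken under the main scaling only. The shift of -0.11 under total counts would take Srf, Cnn2, Tagln2, Myh9 and Myh10, among others, past the rule as lower. No paired analysis was possible because each genotype has 1 library, and for the same reason no replicate could be left out. The difference between pools cannot be told apart from that between genotypes.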
